A study of Mus musculus with 54 samples.

Results

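Near intergenic peaks are accessible regions that lie between genes but not far from the start of an annotated transcript. They were chosen by position from a merged list of ATAC-seq peaks on the mouse genome build GRCm38. The centre of such a peak fell outside every gene body of the GENCODE release M21 annotation and more than 1 kb but at most 50 kb from the nearest transcription start site (TSS) of any annotated transcript. On the 19 autosomes 33923 peaks met this rule, out of 113737 regions in the whole list and 111741 on autosomes, which is 30.4% of autosomal peaks (Wilson 95% interval from 30.1% to 30.6%, counting error only). The other autosomal peaks were 39281 intronic distal peaks, 23309 TSS-proximal peaks with a centre within 1 kb of a TSS, 9770 gene desert peaks between genes and over 50 kb from a TSS, and 5458 exonic peaks.

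ATAC-seq tags open DNA with the Tn5 transposase, and the peaks came from ZHBTc4 mouse embryonic stem (ES) cells. In these cells Pou5f1, which encodes OCT4, is expressed from a Tet-Off promoter, which doxycycline (dox) turns off. To remove the OCT4 made from it, all 54 samples had dox at 1 µg/ml. All carried mCherry-OCT4-AID, an OCT4 fusion driven at a low level by the PGK promoter that is degraded when the auxin indole-3-acetic acid (IAA) is given, with Tir1-V5, the plant protein needed for this degradation, and YPet-MD, a reporter of cell cycle phase. The cell cycle set held 22 samples with 26 hr of dox that received 500 nM IAA for 2 hr or none and were sorted into early G1, late G1, S, or late S with G2, with 3 replicates per group except 2 in late S with G2. The washout set held 16 samples with 31 hr of dox, given IAA for 2.5 hr or not and sorted into the same phases after a washout of 4.5 hr. The time course held 16 unsorted samples with 34 hr of dox, untreated or with IAA for 30 min or 1, 2, 3, 4, 6 or 10 hr, and both of these sets had 2 replicates per group. The cells were a population sorted for degradation of the fusion and not a single clone. The list gives only the start and end of each region, merged over these samples, so that no value belonged to a sample or group and neither IAA nor a cell cycle phase could be compared here. The depth is unknown. Differences were therefore compared over chromosomes, and the p-values measure the spread between the 19 autosomes and not between cultures.

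Open regions between genes include enhancers, stretches of DNA on which transcription factors assemble and from which they act on promoters at a distance. In ES cells OCT4 and SOX2 bind many of them side by side, at a composite motif made of a SOX site followed by an OCT site, together with factors such as KLF4 and ESRRB. Other open regions are held by CTCF, a zinc finger protein found at the borders of chromatin domains and at the anchors of loops.

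The sequences below show what the motifs look like in the peaks near genes of pluripotency. They are 300 bp windows around the peak centre on GRCm38.p6, each on the strand on which the motif reads forward, with the match in capitals. The Utf1 peak was the only near intergenic peak assigned to a listed pluripotency gene that held the composite OCT4::SOX2 motif, here defined as CATTGT, 1 free base and ATGCAAAT with up to 2 mismatches, and its match had 2. Utf1 encodes a chromatin protein of undifferentiated cells. The window lies at chr7:139945626-139945925 (minus strand) in a peak of 402 bp, 1987 bp downstream of the Utf1 TSS. The other 5 windows hold the match nearest to a peak centre among the pluripotency genes for each of KLF, ESRRB, CTCF, OCT and SOX. These are at chr1:13103940-13104239 (minus) downstream of Prdm14, chr2:168786091-168786390 (plus) upstream of Sall4, chr8:43257712-43258011 (minus) downstream of Zfp42, chr6:122660617-122660916 (plus) downstream of Dppa3 and chr17:35490403-35490702 (plus) upstream of Pou5f1. The Sall4 and Zfp42 peaks were 75.7% and 68.9% repeat-masked, and the Sall4 peak of 243 bp was narrower than the window.
Utf1, OCT4::SOX2: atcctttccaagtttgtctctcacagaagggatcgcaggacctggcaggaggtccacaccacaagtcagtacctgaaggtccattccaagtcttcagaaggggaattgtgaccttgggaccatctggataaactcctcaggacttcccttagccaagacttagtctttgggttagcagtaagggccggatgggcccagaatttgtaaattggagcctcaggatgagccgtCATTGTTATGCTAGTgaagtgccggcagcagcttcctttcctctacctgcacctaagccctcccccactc
Prdm14, KLF: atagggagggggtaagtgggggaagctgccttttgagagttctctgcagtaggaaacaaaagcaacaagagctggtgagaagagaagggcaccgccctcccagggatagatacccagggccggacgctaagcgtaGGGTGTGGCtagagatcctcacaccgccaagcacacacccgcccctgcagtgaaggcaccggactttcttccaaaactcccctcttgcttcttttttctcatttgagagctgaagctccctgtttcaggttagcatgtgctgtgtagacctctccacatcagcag
Sall4, ESRRB: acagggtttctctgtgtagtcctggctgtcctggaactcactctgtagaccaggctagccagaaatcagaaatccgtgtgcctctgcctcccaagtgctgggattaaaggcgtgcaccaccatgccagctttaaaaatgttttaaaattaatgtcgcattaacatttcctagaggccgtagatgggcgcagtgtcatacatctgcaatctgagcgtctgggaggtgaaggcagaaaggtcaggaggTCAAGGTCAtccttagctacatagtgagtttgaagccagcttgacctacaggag
Zfp42, CTCF: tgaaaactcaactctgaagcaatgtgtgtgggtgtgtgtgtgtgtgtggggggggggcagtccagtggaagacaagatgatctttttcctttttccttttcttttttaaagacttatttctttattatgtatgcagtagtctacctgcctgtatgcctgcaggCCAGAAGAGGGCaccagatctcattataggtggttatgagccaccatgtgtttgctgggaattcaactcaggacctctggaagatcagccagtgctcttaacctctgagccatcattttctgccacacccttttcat
Dppa3, OCT: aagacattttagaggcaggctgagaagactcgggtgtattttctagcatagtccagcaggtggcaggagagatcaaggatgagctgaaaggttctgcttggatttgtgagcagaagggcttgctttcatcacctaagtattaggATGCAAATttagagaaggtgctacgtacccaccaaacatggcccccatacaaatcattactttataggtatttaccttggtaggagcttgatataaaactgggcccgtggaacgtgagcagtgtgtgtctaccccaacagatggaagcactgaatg
Pou5f1, SOX: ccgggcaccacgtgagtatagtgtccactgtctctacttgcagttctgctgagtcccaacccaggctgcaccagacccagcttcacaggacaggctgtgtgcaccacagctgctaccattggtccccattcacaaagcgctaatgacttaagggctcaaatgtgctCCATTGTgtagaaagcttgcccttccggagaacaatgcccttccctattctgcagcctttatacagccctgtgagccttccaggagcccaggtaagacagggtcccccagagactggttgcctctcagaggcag

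Only 3 near intergenic peaks held the composite motif without a mismatch in their 300 bp window, and they were picked out after the matches had been counted. A further 7 had a best match with 1 mismatch and 155 with 2. The 3 exact matches are shown with 30 bp on either side and again in capitals. They lie at chr11:112811236-112811310 (plus), 12201 bp from the TSS of the gene Gm11681 in a peak of 1267 bp, at chr15:59174356-59174430 (plus), 36558 bp from that of Gm5045 in a peak of 222 bp, and at chr5:119304817-119304891 (minus), 7578 bp from that of n-R5s175 in a peak of 271 bp.
Gm11681: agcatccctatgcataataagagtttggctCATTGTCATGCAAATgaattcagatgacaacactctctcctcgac
Gm5045: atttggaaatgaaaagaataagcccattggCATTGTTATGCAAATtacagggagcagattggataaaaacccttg
n-R5s175: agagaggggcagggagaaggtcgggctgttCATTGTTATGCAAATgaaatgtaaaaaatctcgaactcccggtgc

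Near intergenic peaks were denser than peaks far from genes, while the comparison with peaks in introns changed with the settings. Density was counted as peak centres per Mb of sequence that met the same rule of place and distance and held no unknown bases. Near intergenic sequence covered 829 Mb, or 34.6% of the assembled autosomal sequence, and held 40.8 ± 5.48 peaks per Mb (mean and SD over 19 chromosomes). The lowest density was 28.2 peaks per Mb on chromosome 16, with 840 peaks, the median 41.7, and the highest 50.3 on chromosome 11, with 1870. Gene deserts held 26.1 ± 6.83 peaks per Mb, from 14.3 to 39.9. The ranges overlapped, but the near intergenic density was higher on 18 of 19 chromosomes, by 14.7 ± 6.29 peaks per Mb (two-sided sign-flip permutation test over chromosomes with 100000 resamples, Benjamini-Hochberg adjusted p = 3.5e-05 over 21 comparisons). Introns over 1 kb from a TSS held 40.5 ± 4.49 peaks per Mb, from 29.2 to 49.1. The difference of 0.363 ± 3.12 was smaller than the spread between chromosomes (higher on 12 of 19, permutation test, adjusted p = 0.643). The difference depended on the settings. It was 3.89 with 20 kb as the upper limit (permutation test, adjusted p = 0.000106) and 10.2 with protein-coding genes only (permutation test, adjusted p = 2.35e-05). The 20 kb limit left out the sparser near intergenic sequence at 20 to 50 kb but no introns, so that a rise follows from it. Without peaks over 50% repeat-masked it was -2.67 (permutation test, adjusted p = 0.000604), a filter that removed 18.4% of near intergenic and 10.9% of intronic peaks from the same amount of sequence.

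Within 50 kb the density did not simply fall with distance. It was 45.1 ± 8.92 peaks per Mb at 1 to 2 kb, 42.1 ± 5.91 at 2 to 5 kb, 47.6 ± 6.97 at 5 to 10 kb, 43.2 ± 6.25 at 10 to 20 kb and 35.1 ± 6.05 at 20 to 50 kb. The median near intergenic peak lay 12794 bp from a TSS, with the 10th percentile at 2981 bp, and 10963 of the peaks (32.3%) were at 20 to 50 kb. Density at 1 to 5 kb (42.8 ± 6.21) exceeded that at 20 to 50 kb on 17 of 19 chromosomes, by 7.70 ± 6.32 peaks per Mb (permutation test, adjusted p = 0.000157). This order depended on the annotation. With protein-coding genes only, the same difference was -5.79 peaks per Mb (permutation test, adjusted p = 0.000267), so that the bands close to a TSS were the less dense ones.

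**Figure D1:**
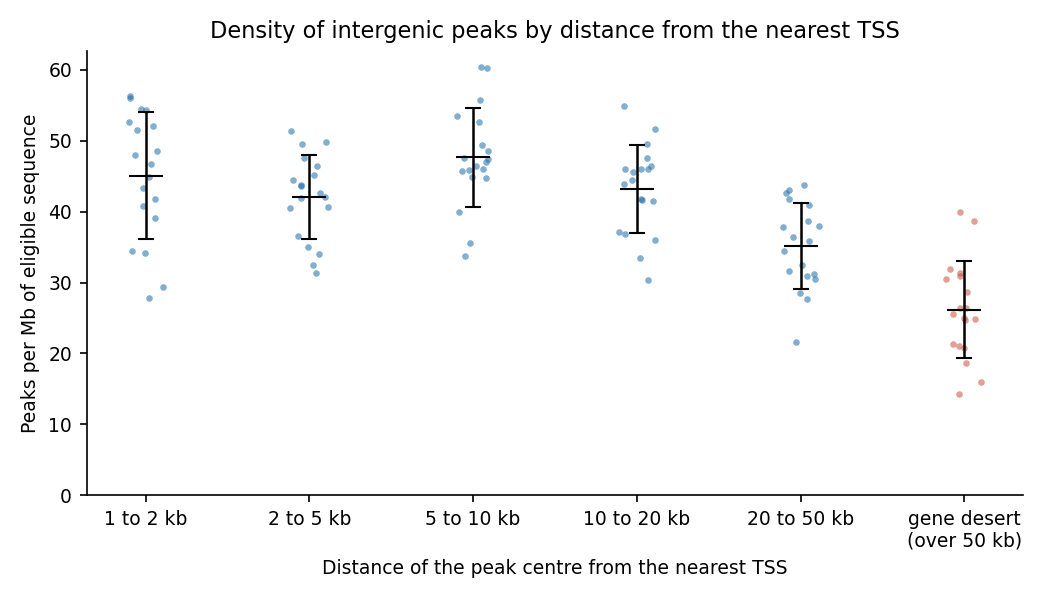
Peak centres per Mb of eligible sequence (vertical axis) in 5 bands of distance from the nearest TSS and in gene deserts (horizontal axis), with 1 point per autosome and the mean and SD over 19 autosomes in black. Means run from 47.6 at 5 to 10 kb to 35.1 at 20 to 50 kb, and gene deserts lie at 26.1.

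The rule has limits at 1 kb and 50 kb, and peaks on either side of each limit had similar widths. In the first 500 bp inside the lower limit, 920 near intergenic peaks had a median width of 392.5 bp, and in the 500 bp outside it 895 intergenic peaks had 407 bp. At the upper limit, 1054 peaks at 45 to 50 kb had a median of 364.5 bp and 911 peaks at 50 to 55 kb had 350 bp. The edge of 451 near intergenic peaks (1.33%) reached within 1 kb of a TSS although the centre did not.

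Near intergenic peaks were denser around TSSs that were themselves open. A TSS was counted as open when any peak of the list had its centre within 1 kb. Where the nearest TSS was open, 12201 near intergenic peaks lay in 218 Mb, at 55.8 ± 6.24 per Mb, from 42.9 to 67.1 over chromosomes. Where it was not, 21722 peaks lay in 611 Mb, at 35.5 ± 5.43 per Mb, from 24.2 to 45.3. The 2 ranges overlapped slightly, and the density near open TSSs was higher on all 19 chromosomes, by 20.3 ± 6.64 peaks per Mb, or 1.57-fold (permutation test, adjusted p = 3.5e-05).

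The excess near open TSSs was uneven across distances. At 1 to 2 kb the densities were 52.9 ± 10.5 and 41.8 ± 10.6 peaks per Mb, and at 2 to 5 kb 44.1 ± 5.66 and 41.4 ± 7.02, which differed by less than the SD between chromosomes. At 5 to 10 kb they were 69.4 ± 9.76 and 39.0 ± 5.80, a ratio of 1.78. At 10 to 20 kb they were 60.5 ± 7.22 and 37.0 ± 5.91, and at 20 to 50 kb 49.8 ± 9.36 and 30.6 ± 5.96. The band from 5 to 10 kb was thus the densest one near open TSSs, while near other TSSs the means fell from each band to the next. These values by band are a description without a test.

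The density also differed with the kind of gene. The nearest TSS belonged to a protein-coding gene for 12484 near intergenic peaks (36.8%), to a processed pseudogene for 8447 (24.9%) and to a lincRNA, a long non-coding RNA between genes, for 5718 (16.9%). Around protein-coding TSSs the density was 48.8 ± 6.85 peaks per Mb and around all others 37.3 ± 5.59, a difference of 11.4 ± 5.94 that was positive on 18 of 19 chromosomes (permutation test, adjusted p = 3.5e-05). At 2 to 5 kb the densities were 41.4 ± 6.38 and 42.5 ± 7.39 and at 10 to 20 kb 53.8 ± 9.0 and 38.3 ± 5.93. Protein-coding TSSs and open TSSs are overlapping sets, and their parts in this difference were not separated.

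**Figure D2:**
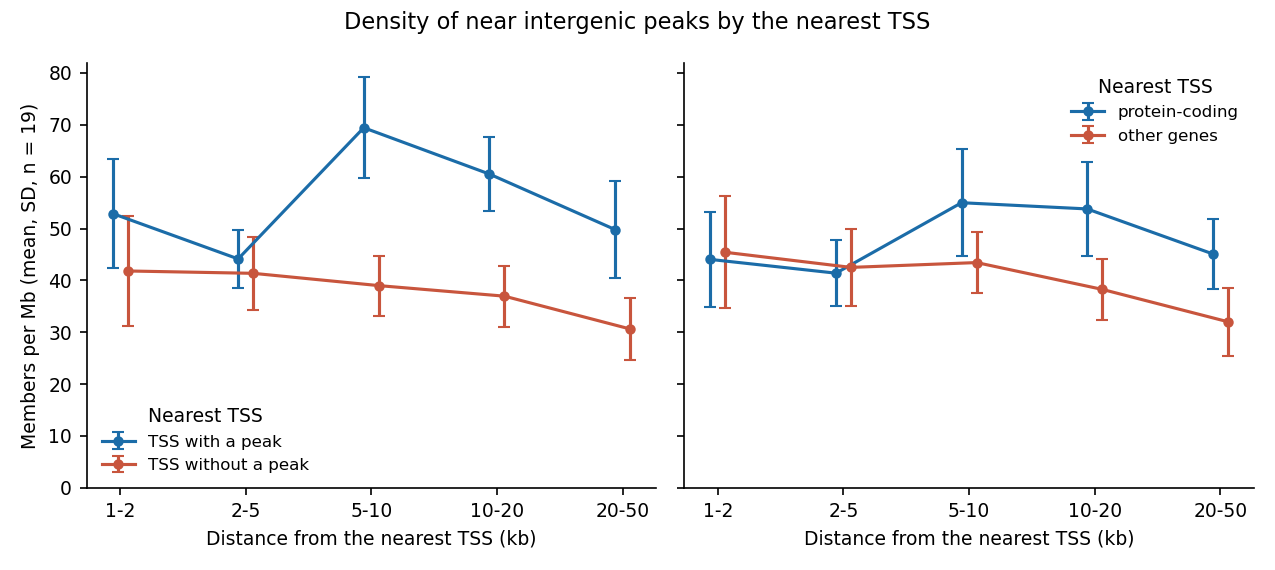
Near intergenic peaks per Mb (vertical axis, mean and SD over 19 autosomes) in 5 bands of distance from the nearest TSS (horizontal axis, kb), split by whether that TSS had a peak (left) or belonged to a protein-coding gene (right). The left curves almost meet at 2 to 5 kb, at 44.1 and 41.4, and stand farthest apart at 5 to 10 kb, at 69.4 and 39.0.

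Neither the side of the gene nor the direction of the flanking genes passed the test. Upstream of the nearest TSS lay 19572 near intergenic peaks (57.7%) in 58.0% of the eligible sequence, so that the densities were 40.6 ± 5.04 upstream and 41.1 ± 6.33 downstream (difference -0.479 ± 2.48, permutation test, adjusted p = 0.475). Gaps between genes pointing away from each other held 41.1 ± 5.05 peaks per Mb, and gaps between genes pointing toward each other 42.8 ± 6.78 (difference -1.69 ± 3.73, higher on 3 of 19 chromosomes, permutation test, adjusted p = 0.0791). The difference between these gaps passed the threshold under 4 alternatives, each with fewer peaks between diverging genes. It was -2.68 with the 20 kb upper limit (permutation test, adjusted p = 0.0284), -5.36 with protein-coding genes only (permutation test, adjusted p = 0.00499), -2.18 without peaks over 50% repeat-masked (permutation test, adjusted p = 0.0123) and -2.12 without chromosome 14 (permutation test, adjusted p = 0.0185). With protein-coding genes only, upstream against downstream was -5.62 (permutation test, adjusted p = 2.35e-05).

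Near intergenic peaks were wider, richer in G and C and poorer in repeats than gene desert peaks, and far from the composition of promoters. Their median width was 401 bp, with the 10th and 90th percentiles at 213 and 935 bp. Over chromosomes the median width was 406 ± 27.9 bp, from 343.5 on chromosome 14 to 465 on chromosome 19. It was 326.5 ± 18.9 bp in gene desert peaks (difference 79.0 ± 22.8, 19 of 19 chromosomes, permutation test, adjusted p = 3.5e-05) and 376 ± 19.8 bp in intronic peaks (difference 29.3 ± 17.3, 17 of 19, permutation test, adjusted p = 6e-05). TSS-proximal peaks had a median of 967 ± 43.5 bp, and every chromosome lay above every near intergenic value. Because the list is merged over samples, a wide region can be a broad peak or several overlapping ones.

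The GC content of near intergenic peaks averaged 47.7 ± 0.916%, against 45.7 ± 0.784% in gene deserts (higher on 19 of 19 chromosomes, permutation test, adjusted p = 3.5e-05), 47.8 ± 0.957% in introns (permutation test, adjusted p = 0.643) and 56.3 ± 0.996% near TSSs. Against introns the GC difference changed sign under other settings, which are given under the processing. CpG dinucleotides, the sites of DNA methylation and depleted in most of the genome, occurred at 0.276 ± 0.0146 of the number expected from base content, against 0.232 ± 0.0211 in gene deserts, 0.258 ± 0.0136 in introns and 0.661 ± 0.0147 near TSSs. The CpG ratio of near intergenic peaks was higher than in introns on 16 of 19 chromosomes (permutation test, adjusted p = 0.000154). It fell from 0.311 at 1 to 2 kb from a TSS to 0.260 at 20 to 50 kb.

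Repeats set near intergenic peaks apart from peaks in introns more clearly than base content did. The repeat-masked share of a near intergenic peak averaged 25.6 ± 2.68%, from 20.1% on chromosome 19 to 29.2% on chromosome 14. In introns it was 19.5 ± 1.18%, lower on 19 of 19 chromosomes by 6.12 ± 2.15 percentage points (permutation test, adjusted p = 3.5e-05), and near TSSs 10.5 ± 0.846%. In gene deserts it was 32.0 ± 4.48%, higher on 18 of 19 chromosomes (permutation test, adjusted p = 4.85e-05). In all, 6247 near intergenic peaks (18.4%) were over 50% repeat-masked and 5229 (15.4%) held no masked base. Without peaks over 50% masked the difference from gene deserts was -0.234 percentage points (permutation test, adjusted p = 0.575). That filter acts on the compared quantity itself and removed 18.4% of near intergenic but 28.9% of gene desert peaks, so that a smaller difference follows from it. Reads from repeats can align to more than 1 place, and the part of this in the peak calls was not tested. Repeat share, GC content and CpG ratio were not measured over the eligible sequence of each class. Differences between peaks were thus not separated from those of the sequence around them.

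**Figure D3:**
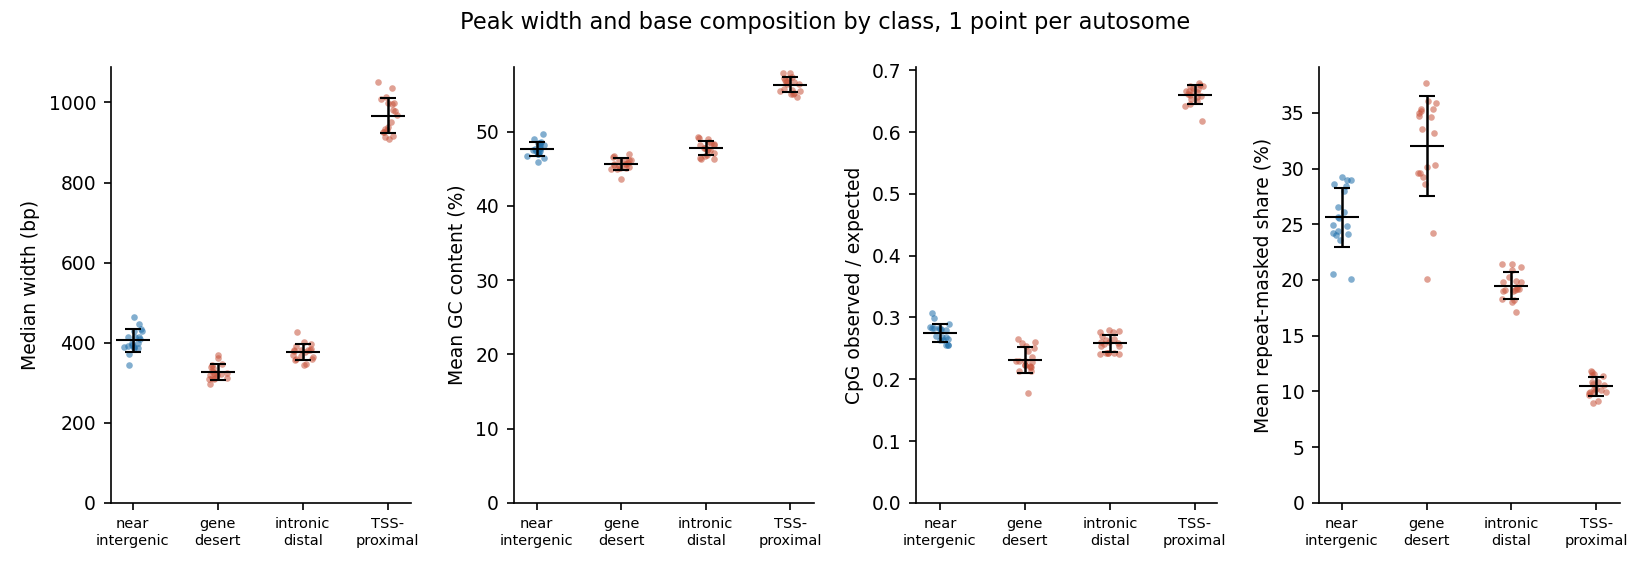
Median width (bp), mean GC content (%), CpG observed over expected and mean repeat-masked share (%) of the peaks on each autosome (points, with mean and SD over 19 autosomes) for near intergenic peaks in blue and 3 other classes in red. Near intergenic peaks lie close to intronic peaks in the first 3 panels and above them in the last, at 25.6% against 19.5%.

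Near intergenic peaks had a close neighbour more often than gene desert peaks. Another peak of the list, of any class, lay within 5 kb (centre to centre) of 49.1 ± 2.82% of near intergenic peaks, 35.7 ± 6.58% of gene desert peaks and 48.9 ± 2.64% of intronic peaks. The difference from gene deserts was 13.3 ± 5.84 percentage points (18 of 19 chromosomes, permutation test, adjusted p = 3.5e-05), and that from introns 0.157 ± 2.30 (permutation test, adjusted p = 0.769). The difference from introns changed in size and in sign with the settings, as given under the processing. The distance rule sets part of the first difference, since a peak at a TSS can lie within 5 kb of a near intergenic peak but never of a gene desert peak. Among peaks over 6 kb from any TSS, which no TSS-proximal peak can neighbour at this distance, the share was 46.1 ± 2.92% of 25794 near intergenic peaks against the same 35.7 ± 6.58% of gene desert peaks, a difference of 10.4 ± 5.66 percentage points (18 of 19 chromosomes, permutation test, adjusted p = 3.5e-05). This restriction was chosen after the data were seen. Close neighbours also become more frequent where peaks are denser, and near intergenic sequence held 40.8 against 26.1 peaks per Mb in gene deserts. Clustering beyond that density was not tested. By distance, the share was 63.1% at 1 to 2 kb from a TSS, where the neighbour can be the peak at the TSS itself, and 42.7% at 20 to 50 kb.

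Counts of near intergenic peaks varied from gap to gap between genes, and they were not set against gap length. Of 34338 gaps, 13975 (40.7%) held a near intergenic peak, and 6272 of these held only 1. The 194 gaps with 10 or more held 2297 near intergenic peaks (6.77%). The largest number, 20, lay in the gap of 306 kb from Tfap2c to Gm22773 (chr2:172558623-172864263). Tfap2c encodes the transcription factor AP-2γ of trophoblast and germ cells. The gap of 116 kb from Bhlhe40 to Arl8b (chr6:108666926-108783098) held 19. The gap of 64.0 kb from Prl2c3 to Gm18262 on chromosome 13 held 18. Prl2c3 belongs to a family of placental prolactin genes with near-identical copies, and whether reads were shared between the copies was not tested.

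The protein-coding gene with the most near intergenic peaks closer to its TSS than to any other was Axin2, with 15. Axin2 is a feedback inhibitor and a common target of Wnt signalling. Of its peaks 11 lay upstream and 4 downstream, 8181 to 47804 bp away, and their widths ran from 172 to 1600 bp. Bhlhe40, a transcriptional repressor of the circadian and hypoxia responses, had 14, all downstream, and Prl2c3 had 14, of which 6 were over 50% repeat-masked. Over all near intergenic peaks 18.4% were over 50% repeat-masked. Rybp, a subunit of Polycomb complexes, and Tfap2c had 12 each. Gtf3a, the general factor TFIIIA for 5S rRNA transcription, had 11 upstream peaks, of which 5 held a CTCF match. Over all 120 peaks assigned to the 10 genes with most, 12 (10.0%) held one, against 13.7% of all near intergenic peaks. Lbx1, a homeobox factor of muscle and neural precursors, and Mucl2 had 11 each, and Cd9, a tetraspanin of the ES cell surface, and the stress gene Ddit4 had 10 each. The TSSs of these 10 genes were all open, as were those of 72.3% of all protein-coding genes, and the highest count within 50 kb of any gene, 24, was at a gene without an open TSS. As background, 30.5% of 20807 autosomal protein-coding genes had at least 1 near intergenic peak closest to them, 70.2% had 1 or more within 50 kb of their TSSs, and 1.25% had 10 or more within 50 kb.

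Listed genes of pluripotency had the highest median of near intergenic peaks within 50 kb among 4 lists, given here as counts without a test. The counts were not divided by the near intergenic sequence around each gene, and a peak within 50 kb of several genes counted for each. Of 25 pluripotency genes, 24 had an open TSS (against 72.3% of all protein-coding genes, 25 of 25 housekeeping genes and 22 of 24 lineage factors), 18 had a near intergenic peak closest to them, 24 had 1 or more within 50 kb and 5 had 10 or more. Their median was 6 within 50 kb, against a median of 1 over all protein-coding genes and of 2 over those with an open TSS. Dppa4, Klf5 and Zfp42 had the most, 12 each within 50 kb. Zfp42, a marker of naive ES cells, was the nearest gene for 9 of them, of which 6 lay downstream and 3 upstream, 12442 to 49074 bp away. Prdm14, which keeps ES cells from germ layer fates, and Fgf4, the growth factor that ES cells secrete, had 11 each within 50 kb. Tfcp2l1, a factor of the naive state, had none.

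At Pou5f1 itself 4 near intergenic peaks were assigned to the gene, all upstream, and 9 lay within 50 kb. The closest, at chr17:35503772-35504573, was 802 bp wide and centred 1845 bp from the TSS, and those at 3255, 8984 and 15465 bp were 377, 331 and 1117 bp wide. Of these 4 peaks 3 held a SOX match in the central 300 bp and none a composite match. Over all near intergenic peaks the shares were 20.6% and 0.486%. Nanog, a homeobox factor of the pluripotent state, had 1 peak assigned, at chr6:122719765-122720580 and 12605 bp downstream, and 9 within 50 kb. Sall4, a zinc finger factor that works with OCT4, had 6, all upstream from 1636 to 39895 bp. Sox2, Klf4 and Tbx3 had none assigned but 3, 2 and 6 within 50 kb, because other annotated TSSs lay closer to those peaks. The assignment to the nearest TSS is a position and does not say which gene a peak acts on.

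In the remaining lists the medians within 50 kb were lower, although the median of assigned peaks was 1 for both pluripotency genes and lineage factors, and the highest count within 50 kb was 17 for the latter and 12 for the former. Of 24 autosomal lineage transcription factors, which drive differentiation, 14 had a near intergenic peak assigned and 21 had 1 or more within 50 kb, with a median of 4. Tfap2c had 17 and Neurog1, a neural factor, 10, while Gata4, Sox7 and Pax6 had none. Of 25 housekeeping genes, 11 had a peak assigned and 21 had 1 or more within 50 kb, with a median of 2. Actb, the cytoplasmic actin, had 11 and Eno1, a glycolytic enzyme, 10, while Gapdh, Rplp0, B2m and Pkm had none. Of 23 autosomal genes of differentiated tissues that are silent in ES cells, 8 had an open TSS, 5 had a peak assigned and 16 had 1 or more within 50 kb, with a median of 1 and a maximum of 4, at Tnnt2 of heart muscle and Mbp of myelin.

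The motifs of the peaks assigned to pluripotency genes can be set beside those of all near intergenic peaks. Of the 59 peaks assigned to these genes, whose median width was 485 bp, 14 (23.7%) held a SOX match, 10 (16.9%) a KLF match, 6 (10.2%) a CTCF match, 2 (3.39%) an OCT match, 1 (1.69%) an ESRRB match and 1 a composite match. The shares over all near intergenic peaks were 20.6%, 12.1%, 13.7%, 2.26%, 2.1% and 0.486%. Of 47 peaks assigned to lineage factors 8 (17.0%) held a SOX and 8 a KLF match, and of 24 assigned to housekeeping genes 5 (20.8%) held a SOX and 7 (29.2%) a KLF match. With so few peaks these shares carry wide counting errors.

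Short sequence motifs were counted in the central 300 bp of each peak, on both strands, as exact letters unless stated, where N is any base. The OCT motif ATGCAAAT is the OCT part of the composite motif, so the 2 overlap. The others were CCNTTGT for SOX, GGGNGNGGC for KLF, TCAAGGTCA for ESRRB, the CTCF consensus with up to 1 mismatch, GCCTNAGGC for AP-2, CCGGAAGT for ETS, TGANTCA for AP-1, CATTCCA for TEAD, TTCCNGGAA for STAT3, CAGCAGG for ZIC and ATCAAAG for TCF. A match is a description of the letters and not a measure of binding. For the composite motif 155 of the 165 peaks with a match had the full 2 mismatches. Its shares thus depend on the letters chosen and do not measure how common OCT4::SOX2 sites were. The window ran past the edges of peaks narrower than 300 bp, which were 35.0% of near intergenic, 45.3% of gene desert, 37.9% of intronic and 13.4% of TSS-proximal peaks, so that some matches lay beside the peak. SOX was matched in 6988 near intergenic peaks (20.6%), CTCF in 4637 (13.7%), ZIC in 4247 (12.5%), KLF in 4096 (12.1%) and AP-1 in 3624 (10.7%). None of the 13 motifs was found in 12858 (37.9%), whose median width was 349 bp.

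Set against the sequence 2 kb to either side, 11 of 13 motifs were more frequent in the peaks (adjusted over 13 motifs, here and in the next comparisons). The 63622 flanking windows of the same length overlapped no peak, and their GC content was lower, at 43.1%, and was not matched. CTCF was found in 13.7% of near intergenic peaks and 2.91% of flanks, 4.70-fold more often and on 19 of 19 chromosomes (permutation test, adjusted p = 2.89e-05). AP-2 was 4.47-fold (2.01% against 0.450%), KLF 2.80-fold (12.1% against 4.31%), ESRRB 2.67-fold (2.1% against 0.786%) and SOX 1.37-fold (20.6% against 15%) more frequent, each with adjusted p = 2.89e-05 in the permutation test. The composite motif was found in 165 near intergenic peaks (0.486%) and 0.373% of flanks, a difference of 0.122 ± 0.212 percentage points that was positive on 14 of 19 chromosomes (permutation test, adjusted p = 0.0205). With the 20 kb upper limit it was 0.0845 (permutation test, adjusted p = 0.232). Allowing 1 mismatch more turned it to -0.319 percentage points (permutation test, adjusted p = 0.0548). OCT, at 2.26% against 2.41%, and TCF, at 5.63% against 6.03%, did not pass the threshold.

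Matches of most motifs were also denser toward the peak centre. Within 50 bp of the peak centre CTCF matches occurred at 0.531 per kb and at 500 to 1000 bp from it at 0.109 per kb, a ratio of 4.87. The ratio was 4.36 for AP-2, 2.72 for KLF, 2.35 for ESRRB, 2.08 for ETS and 2.00 for ZIC. It was 1.57 for SOX, 1.47 for the composite motif, 1.33 for OCT and 1.06 for TCF.

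**Figure D4:**
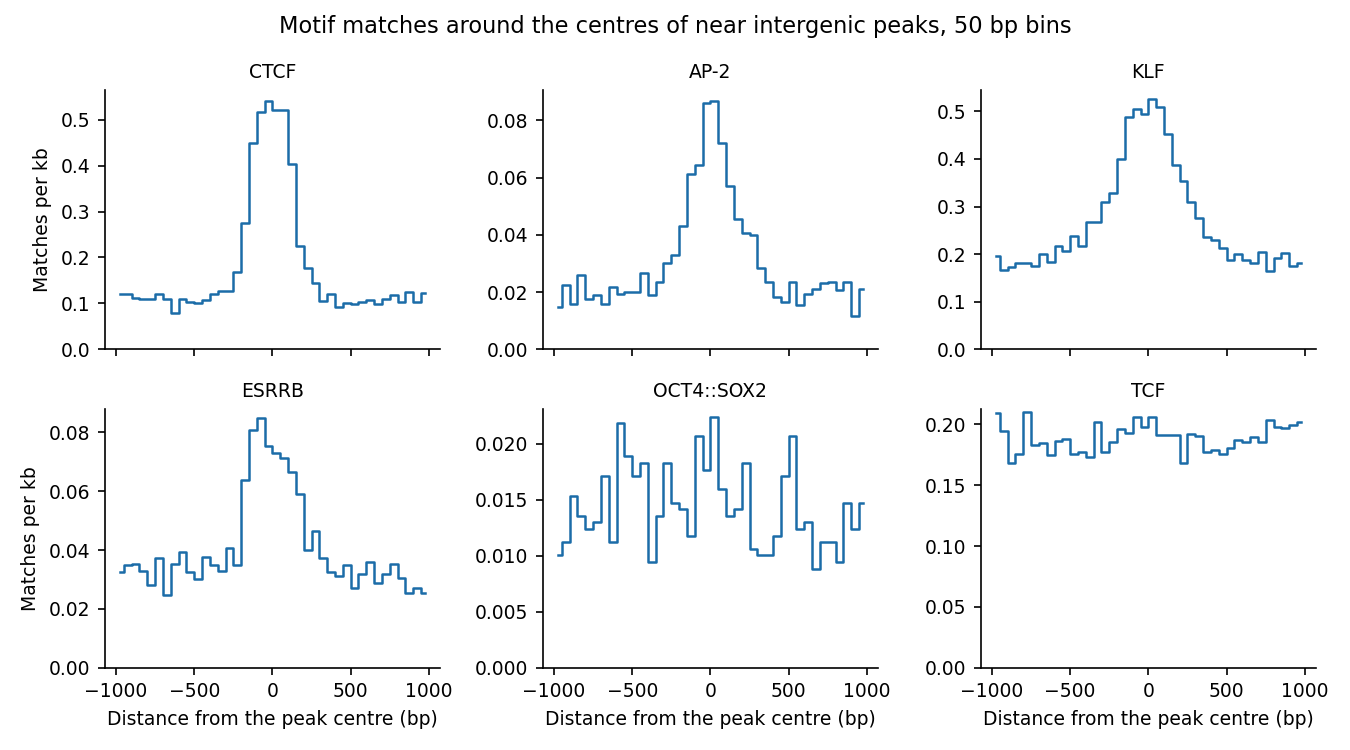
Motif matches per kb (vertical axes, each from 0) by distance from the centres of 33923 near intergenic peaks (horizontal axes, bp, bins of 50 bp) for 6 motifs. CTCF, AP-2, KLF and ESRRB rise toward the centre, with CTCF at 0.531 per kb against 0.109 outside, while TCF stays level with a ratio of 1.06 and the few composite matches scatter.

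Against gene desert peaks 6 motifs passed the threshold. CTCF was found in 13.7% of near intergenic peaks and 7.18% of gene desert peaks, a difference of 6.37 ± 1.61 percentage points on 19 of 19 chromosomes (permutation test, adjusted p = 8.67e-05). KLF followed with 12.1% against 7.43% (19 of 19, permutation test, adjusted p = 8.67e-05), and ZIC, ETS and STAT3 were also more frequent. The STAT3 call was lost with protein-coding genes only (permutation test, adjusted p = 0.0659) and without peaks over 50% repeat-masked (permutation test, adjusted p = 0.0521). SOX was less frequent, at 20.6% against 22.5%, and was higher on 5 of 19 chromosomes (permutation test, adjusted p = 0.00234). When the whole peak was searched, the SOX difference was 0.918 percentage points (permutation test, adjusted p = 0.200). The composite motif, at 0.486% against 0.635%, and OCT, at 2.26% against 2.70%, did not pass.

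Against intronic peaks 2 motifs passed the threshold. OCT, at 2.26% against 1.82%, and SOX, at 20.6% against 19.7%, were each higher on 15 of 19 chromosomes with adjusted p = 0.0163 in the permutation test. Neither call held under 4 alternatives. With 2500 bp as the lower limit the OCT and SOX differences were 0.486 and 0.788 percentage points (permutation test, adjusted p = 0.0593 and 0.0967), and with the 20 kb upper limit 0.434 and 0.676 (permutation test, adjusted p = 0.0576 and 0.212). With protein-coding genes only they were 0.248 and 0.240 (permutation test, adjusted p = 0.189 and 0.652), and without peaks over 50% repeat-masked 0.268 and 0.376 (permutation test, adjusted p = 0.216 and 0.407). The composite motif was found in 0.486% and 0.491%, a difference of -0.00927 ± 0.245 percentage points, and CTCF in 13.7% and 13.4%. When whole peaks were searched, more than 2 motifs passed, as given under the processing.

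Against TSS-proximal peaks all 13 motifs passed. KLF, a GC-rich motif, was less frequent in near intergenic peaks (12.1% against 29.2%), as were ETS (0.548% against 3.41%, 0.161-fold) and ZIC (12.5% against 13.4%). The composite motif was 2.64-fold (0.486% against 0.184%, 17 of 19 chromosomes, permutation test, adjusted p = 0.000182), ESRRB 2.61-fold, TCF 2.17-fold, OCT 2.15-fold, TEAD 2.07-fold and AP-1 2.05-fold more frequent. SOX and CTCF were also more frequent in the 300 bp windows, at 20.6% against 12.5% and 13.7% against 7.58%. Many of these calls depended on the search. Over whole peaks, which were wider at TSSs, SOX, AP-2, TEAD and STAT3 differed by -4.25, -1.14, -0.766 and -0.734 percentage points (permutation test, adjusted p = 6.5e-05, 6.5e-05, 0.0151 and 0.00264), so that they were less frequent in near intergenic peaks. CTCF was -1.04 (permutation test, adjusted p = 0.0696), and with 1 mismatch more in the 300 bp windows -1.88 (permutation test, adjusted p = 0.0083). OCT, AP-1 and TCF did not pass over whole peaks, at 0.222, 0.129 and 0.287 percentage points (permutation test, adjusted p = 0.419, 0.701 and 0.419). The ZIC call was lost under 5 alternatives, with adjusted p from 0.066 to 0.612 in the permutation test.

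**Figure D5:**
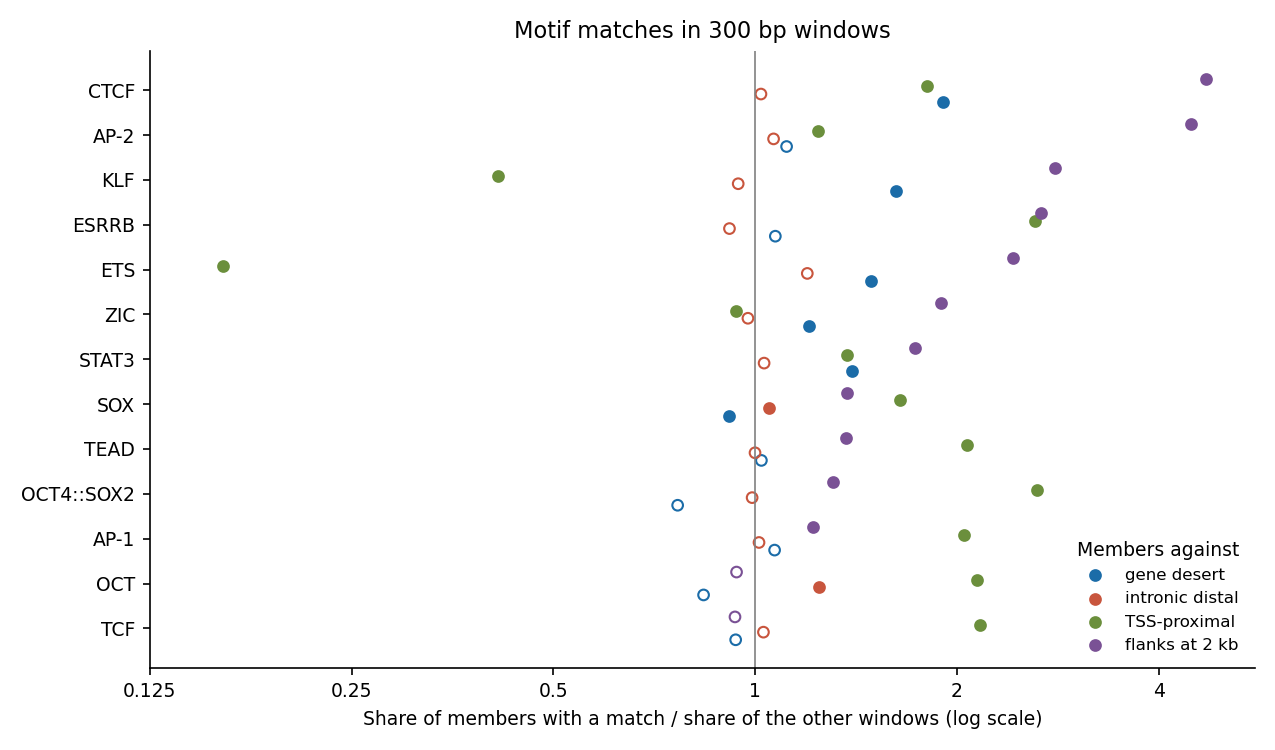
Share of near intergenic peaks with a motif divided by the share in 4 other sets of 300 bp windows (horizontal axis, log scale) for 13 motifs (vertical axis), with filled points where the adjusted p was under 0.05 and open points elsewhere. CTCF stands at 4.70 against flanks and 1.91 against gene deserts, and ETS at 0.161 against TSS-proximal peaks.

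Motif content changed with distance from the TSS for 3 motifs. CTCF was found in 14.1%, 16.1%, 14.9%, 14.7% and 10.9% of near intergenic peaks in the bands at 1 to 2, 2 to 5, 5 to 10, 10 to 20 and 20 to 50 kb. At 1 to 5 kb its share was 15.6% and at 20 to 50 kb 10.9%, higher on 19 of 19 chromosomes by 4.61 ± 2.54 percentage points (permutation test, adjusted p = 0.00026). KLF was found in 13.3% and 10.9% (15 of 19, permutation test, adjusted p = 0.00591), but the call was lost with 2500 bp as the lower limit, where the difference was 1.96 percentage points (permutation test, adjusted p = 0.0674). The composite motif ran the other way, with 24 peaks (0.369%) at 1 to 5 kb and 64 (0.584%) at 20 to 50 kb, and was higher at 1 to 5 kb on 4 of 19 chromosomes (permutation test, adjusted p = 0.0422). Its call was lost when 1 mismatch more was allowed (permutation test, adjusted p = 0.873) and with protein-coding genes only (permutation test, adjusted p = 0.206).

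The peaks that held a given motif differed among themselves. Those with a KLF match had a median width of 513.5 bp and those with a CTCF match 497 bp, against 401 bp over all near intergenic peaks. The 165 peaks with the composite motif had a median width of 453 bp, a mean GC content of 44.4% and a median distance of 15611 bp from the TSS, farther than the 11290 bp of peaks with a CTCF match. Peaks with an AP-1 match had a median width of 400 bp.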

How the data were processed

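ATAC-seq was carried out by the authors in dox-treated OCT4-AID cells. They aligned reads to GRCm38 (mm10 in the submitters' processing notes) with STAR 2.6.1c, removed duplicates with Picard, called peaks with MACS2 2.1.1.20160309 in paired-end mode and joined overlapping peaks across these experiments with bedtools. The deposited file holds chromosome, start and end in bp, with no count, signal or score, so its unit is a position and the depth per sample is unknown. Whether peaks were called per library or on pooled replicates is not given in the sources used here. The study's methods describe removal of regions above 5 kb, of regions that overlap peaks of input samples and of blacklisted regions. In this list 11 regions above 5 kb remained, of which 3 were near intergenic, so it may also still hold input or blacklisted regions, which was not tested. All 54 samples share this 1 list, and no sample was compared with another.

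Positions were compared with GRCm38.p6 and GENCODE M21 and are given 1-based. Regions on X and Y (1996) were left out. Each base was classed as each peak centre was, which gave the eligible sequence behind each density. Repeats are the soft-masked bases of the assembly. Motifs were searched in 300 bp windows. With chromosomes as units, differences were tested by two-sided sign-flip permutation with 100000 resamples, of which 1e-05 is the smallest possible p, and adjusted by the Benjamini-Hochberg method over 21 comparisons, or over 13 motifs in each of 5 motif comparisons, with a threshold of 0.05. Errors given as ± are SDs over chromosomes. Gene lists of 25 genes each were counted in full, and values are given for the genes with most and fewest peaks, for genes of the pluripotency list and for the 10 protein-coding genes with most assigned peaks. The rule, the lists and the tests were chosen with earlier results of these data known. The software was pandas 2.3.3, numpy 2.4.6, matplotlib 3.10.9 and scipy 1.17.1 under Python 3.11.15, and the tests were checked on simulated data. Alternatives were other distance limits, protein-coding genes only, filters on width and repeats, leaving out chromosome 14, whole peaks, 1 mismatch more, a neighbour distance of 10 kb and, for neighbours, peaks over 6 kb from a TSS only.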

Additional observations from a re-analysis of the deposited data

How the results depend on the processing

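Over 666 pairs of a result and an alternative, 111 differences of a main comparison kept direction and side of the threshold, 7 changed sign, 9 newly passed it and 1 lost it. Of the counts of peaks or motifs, 19 were unchanged, 21 changed by at most 1.5 times and 4 by more. Of the differences on single motifs 416 kept both, 39 changed sign, 17 newly passed and 22 lost the threshold. Peaks per Mb against introns rose to 3.89 above them with the upper limit at 20 kb and to 10.2 with protein-coding genes only, and were -2.67 without peaks over 50% repeat-masked. Peaks per Mb in diverging against converging gaps passed the threshold with the 20 kb limit (-2.68), protein-coding genes only (-5.36), without repeat-rich peaks (-2.18) and without chromosome 14 (-2.12). With protein-coding genes only, upstream against downstream was -5.62 and 1 to 5 kb against 20 to 50 kb -5.79. The GC difference from introns was 0.0508 percentage points with 2500 bp as the lower limit, 0.189 with the 20 kb limit and 0.792 with protein-coding genes only. The share with a neighbour within 5 kb, against introns, was 3.24 percentage points higher with the 20 kb limit and 4.42 with protein-coding genes only, but -0.105 without chromosome 14 and -1.16 with a neighbour distance of 10 kb. The repeat share against gene deserts was -0.234 without repeat-rich peaks. The count of motifs past the threshold against introns, 2 as reported, was 0 with the 2500 bp limit, 1 with the 20 kb limit, 1 without repeat-rich peaks and 6 with whole peaks searched. The filter on repeat-rich peaks removes unequal shares of the classes, which lowers the density against introns and narrows the repeat difference from gene deserts by construction, and the other causes were not tested. The 20 kb limit trimmed near intergenic peaks only and not intronic ones, so its values against introns compare unlike ranges of distance.

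Single motif differences that changed sign are given in percentage points. With 1 mismatch more they were OCT4::SOX2 against introns (0.387) and flanks (-0.319) and CTCF against TSS-proximal peaks (-1.88). With the 20 kb limit they were TEAD against gene deserts (0.0105) and OCT against flanks (0.00841), and with the 2500 bp limit AP-1 between the bands at 1 to 5 and 20 to 50 kb (0.193). With protein-coding genes only they were AP-1 against gene deserts (-0.0898), KLF (1.13), TEAD (0.0177) and ZIC (0.123) against introns, and SOX (0.691), ESRRB (0.145) and STAT3 (-0.351) between bands. With whole peaks they were SOX (0.918), TEAD (0.532) and TCF (0.575) against gene deserts, OCT4::SOX2 (0.0385), TEAD (0.359) and ZIC (0.0793) against introns, SOX (-4.25), CTCF (-1.04), AP-2 (-1.14), TEAD (-0.766) and STAT3 (-0.734) against TSS-proximal peaks, where wider peaks gave a longer search, and OCT (-0.351), SOX (0.442), ESRRB (0.174) and AP-1 (0.799) between bands. Without chromosome 14 they were SOX (0.0157) and AP-1 (0.108) between bands. Without repeat-rich peaks they were ESRRB (-0.0283) and AP-1 (-0.181) against gene deserts, OCT4::SOX2 (0.0129) and TEAD (0.127) against introns, TCF against flanks (0.437), and OCT (-0.00572) and STAT3 (-0.119) between bands. Without peaks under 200 bp or above 5 kb they were TEAD against gene deserts (0.0122) and STAT3 between bands (-0.0443).

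No paired analysis was possible because the list is merged over all samples and no value belongs to a replicate. For the same reason no replicate could be left out, and chromosome 14 was left out instead. The band from 20 to 50 kb had no value under the 20 kb limit, coding against other TSSs none with protein-coding genes only, and flanks none with whole peaks. A merged list keeps a region called in any sample, and its number and widths depend on a depth that is unknown.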

Other observations

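The widest near intergenic peaks lay mostly at the starts of chromosomes, which in the mouse assembly are beside the centromere. Of the 10 widest, 8 lay within 500 kb of the first assembled base of their chromosome. The widest, of 6252 bp, was at chr4:3080083-3086334 near Vmn1r-ps2, a pseudogene of the vomeronasal pheromone receptors, and began 30082 bp from that base, and another of 5767 bp at chr4:3050042-3055808 began 41 bp from it. Of 220 near intergenic peaks within 500 kb of the first assembled base, 19 (8.64%) were over 2000 bp wide, against 61 of 33703 elsewhere (0.181%). Their mean repeat-masked share was 38.3% against 25.7%, while their median width was 444.5 bp against 401 bp. These peaks were picked out after their widths had been seen, and the part of repeated sequence, or of blacklisted regions still in the list, in the widths was not tested.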
